A study of Mus musculus with 9 samples.

Results

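The probes described here are the 11024 oligonucleotides of an expression array whose names begin with MMU_CIRCpedia, the circular RNA database from which they were named, and they were all taken by that name from the 166924 probes of the design. Colonic RNA from male C57BL/6J mice aged 10 weeks was measured on 9 arrays, 3 per group, and the groups are named Control, DSS and DSS+PAMK. Mice of the last 2 drank 3% dextran sulfate sodium (DSS), which injures the colonic epithelium, for 7 days, while the Control mice had distilled water to drink. Gavage followed on days 8 to 14, with saline in the Control and DSS mice and, in the DSS+PAMK mice, with 200 mg/kg of PAMK, a polysaccharide of Atractylodes macrocephala. The DSS group thus stands for colonic tissue after DSS had been withdrawn. The design also holds 151603 probes with names beginning with mclstr, of which those listed in the study's tables are typed as protein-coding or lncRNA and which are called linear probes here, and 4297 beginning with mmu_circ, a second set of circular RNA probes. The files pair nearly no probe with a gene, so the tissue was not checked against colonic markers here.

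A circular RNA arises when the spliceosome joins the end of an exon to the start of the same exon or of one that lies upstream, a reaction called back-splicing. The resulting ring has no free ends, which shields it from exonucleases, and its exons are the same as those of the linear RNA of its host gene. Only the back-splice junction, where a downstream exon end meets an upstream exon start, is particular to the circle, and probes for circular RNAs are therefore laid across it. The sources used here state no treatment that removes linear RNA before labeling.

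Each CIRCpedia probe is 60 bases long, and its name ends in a pair of numbers, of which the first ranges with the place of the junction in the probe. The junction was placed so that 29 to 45 bases precede it and 15 to 31 follow it. This reading was checked against linear probes that share a stretch of at least 20 bases with a CIRCpedia probe. Of 868 shared stretches that begin at base 1, 559 (64.4%) stop within 1 base of that place, and of 763 that reach the last base, 464 (60.8%) start within 1 base of it. In the sequences printed here, lower case marks the end of the downstream exon and capitals mark the start of the upstream exon, so that the change of case is the junction. The first 2 are shown because they lay highest in the DSS group over the Control group and lowest in the DSS+PAMK group against the DSS group, and share most of their capitals.
MMU_CIRCpedia_30961_16_20: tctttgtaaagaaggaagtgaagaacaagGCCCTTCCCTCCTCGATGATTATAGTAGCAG
MMU_CIRCpedia_30960_13_14: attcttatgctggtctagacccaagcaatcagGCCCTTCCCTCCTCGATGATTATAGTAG
The next 3 are shown because they passed the adjusted threshold in the DSS group. The first and second of them share 41 bases around the end of their downstream exon and differ after the junction.
MMU_CIRCpedia_219170_5_1012: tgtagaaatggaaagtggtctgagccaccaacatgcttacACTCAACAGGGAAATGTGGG
MMU_CIRCpedia_40068_3_14: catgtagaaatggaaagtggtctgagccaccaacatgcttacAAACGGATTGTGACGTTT
MMU_CIRCpedia_219948_4_16: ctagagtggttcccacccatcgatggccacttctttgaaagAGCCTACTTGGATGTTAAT
The following 3 are the CIRCpedia probes that the study's tables pair with a gene symbol, in the order Ctsc, Egfem1 and Dnah8, and after them stands the probe with the largest positive difference of the DSS+PAMK group from the DSS group.
MMU_CIRCpedia_219305_0_10: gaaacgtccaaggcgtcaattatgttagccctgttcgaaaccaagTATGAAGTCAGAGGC
MMU_CIRCpedia_224682_2_14: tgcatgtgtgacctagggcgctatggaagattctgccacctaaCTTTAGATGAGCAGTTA
MMU_CIRCpedia_229301_1_8: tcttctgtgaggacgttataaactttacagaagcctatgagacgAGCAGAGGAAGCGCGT
MMU_CIRCpedia_7336_9_11: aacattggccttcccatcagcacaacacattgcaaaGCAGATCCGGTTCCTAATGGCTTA

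A place in the genome could be given where a probe shares at least 20 bases, on the same strand, with a RefSeq window of 250 bases before to 50 bases after an annotated start site (GRCm38.p6). This linked 58 probes to 41 genes, and the chromosome of the other probes was not analysed here. Some matches lie wholly before the annotated start site, as for Dync2h1 and Gm46914. Such a link gives a place near the gene and does not make the probe part of its annotated transcript. The probe of Mapk8, the gene of the kinase JNK1, matches chr14:33410996-33411026 on the minus strand. That of Ncor1, a corepressor of nuclear receptors, matches chr11:62438491-62438517 on the minus strand, and that of Ncoa6, a coactivator of nuclear receptors, matches chr2:155440764-155440789 on the minus strand. In these 3 probes the match covers the capitals and begins a few bases before the junction and 2 to 6 bases before the annotated start site. The probes are printed in the same order.
MMU_CIRCpedia_16891_14_18: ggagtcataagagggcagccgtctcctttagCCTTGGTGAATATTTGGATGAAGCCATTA
MMU_CIRCpedia_213655_10_20: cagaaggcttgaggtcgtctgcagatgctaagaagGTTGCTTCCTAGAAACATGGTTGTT
MMU_CIRCpedia_10592_7_20: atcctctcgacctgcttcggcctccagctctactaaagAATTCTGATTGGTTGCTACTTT
A pair of probes was linked to Setd5, which encodes a SET domain protein, at chr6:113104933-113104957 and chr6:113104931-113104961 on the plus strand. They share the sequence after the junction and differ before it.
MMU_CIRCpedia_3497_8_8: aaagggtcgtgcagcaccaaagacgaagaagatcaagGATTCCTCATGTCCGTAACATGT
MMU_CIRCpedia_3499_12_24: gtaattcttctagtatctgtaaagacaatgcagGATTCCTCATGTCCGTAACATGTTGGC
Another pair was linked to Gm35341, a predicted gene, at chr1:186407843-186407862 on the plus strand, from 20 bases after its annotated start site. This match has 20 bases, the fewest that were counted, and stops before the last capitals of both probes.
MMU_CIRCpedia_228491_9_10: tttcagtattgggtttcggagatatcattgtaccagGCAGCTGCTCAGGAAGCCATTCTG
MMU_CIRCpedia_6785_12_30: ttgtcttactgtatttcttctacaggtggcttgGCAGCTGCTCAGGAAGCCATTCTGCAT

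Most CIRCpedia probes gave a signal in the colon. A probe was counted as detected where the scanner software marked it as well above background. In the Control group 91.4%, 88.0% and 89.3% of the 11024 probes were detected on the arrays of replicates 1, 2 and 3. In the DSS group the shares were 82.7%, 89.0% and 89.5%, and in the DSS+PAMK group 84.5%, 84.1% and 90.2%. The linear probes were detected less often on every array, between 51.3% and 69.5%. DSS replicate 1 had the lowest share of CIRCpedia probes, and the 3 groups overlapped. The mean shares were 89.6% ± 1.71 for Control, 87.1% ± 3.81 for DSS and 86.3% ± 3.42 for DSS+PAMK (SD, n = 3 each). Exact two-sided permutation tests gave p = 0.5 for DSS vs Control, p = 1 for DSS+PAMK vs DSS and p = 0.3 for DSS+PAMK vs Control, where 3 arrays against 3 cannot give less than 0.1. The gap between the shares of CIRCpedia and linear probes gave exact permutation p values of 0.3, 0.4 and 0.3 in the same order.

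Detection on all 9 arrays held for 8661 CIRCpedia probes (78.6%), and 537 (4.87%) were detected on none. For the linear probes the same shares were 42.6% and 21.3%, and for the mmu_circ probes 74.0% and 6.63%. Detection on all arrays of 1 group and none of another was counted as well. In 20 probes (0.181%) all 3 Control arrays and no DSS array were above background, and in 9 (0.0816%) the reverse held, against 0.451% and 0.0943% of the linear probes. Between the DSS and DSS+PAMK groups, 8 probes (0.0726%) were detected on the 3 DSS arrays alone and 4 (0.0363%) on the 3 DSS+PAMK arrays alone, against 0.235% and 0.0547% of the linear probes.

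The signal of a probe is given as its log2 processed intensity after quantile normalization over the 9 arrays. The mean over the 9 arrays had a median of 6.44 over all CIRCpedia probes, with 10% of the probes below 3.19 and 10% above 9.69. The median was 3.96 for the linear probes and 6.16 for the mmu_circ probes. Signals of different probes also depend on how well each sequence binds, so these medians describe the probe sets and do not order amounts of RNA. On single arrays the median of the tested CIRCpedia probes lay between 6.75 (DSS replicate 1) and 6.96 (DSS replicate 2). It exceeded that of the tested linear probes by 0.99 ± 0.07 for Control, 1.02 ± 0.14 for DSS and 1.07 ± 0.05 for DSS+PAMK (SD, n = 3 each), and exact permutation p values were 0.8, 0.7 and 0.2 for DSS vs Control, DSS+PAMK vs DSS and DSS+PAMK vs Control.

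The signal changed with the place of the junction. The 1793 probes with 15 bases after the junction had a median signal of 7.33 and 86.9% of them were detected on all 9 arrays. The 2993 probes with 31 bases after the junction, which are nearly symmetric around it, had a median of 5.42 and 69.0% on all 9 arrays. The classes between them, with 16 to 19, 20 to 24 and 25 to 30 bases after the junction, had medians of 7.23, 6.96 and 6.14. Base composition moved with the signal as well. All CIRCpedia probes have a GC content between 40% and 46.7%, and the median signal was 5.96 in the class with the lowest GC content, 6.44 in the middle class and 6.74 at the highest. The symmetric probes had a median GC content of 43.3% and those with 15 bases after the junction 45%. The part of GC content in the difference was not tested.

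The 10 brightest probes had means between 15.56 and 17.47. The brightest, MMU_CIRCpedia_213083_7_5, gave 17.39, 17.40 and 17.44 in Control colons, 17.45, 17.45 and 17.54 in DSS colons and 17.46, 17.66 and 17.47 in DSS+PAMK colons. Differences between group means of the 10 probes were at most 0.17 in size. Of these probes, 4 share 20 or more bases with a linear probe. The linear probe of MMU_CIRCpedia_219975_0_12 had a mean signal of 16.94 against 17.15 for the CIRCpedia probe, while those of MMU_CIRCpedia_38579_10_20 had 9.92 against 17.06.

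DSS vs Control asks which junction probes differ in signal in the colon after DSS. With a 2-fold minimum and unadjusted p values up to 0.05, limma called 70 CIRCpedia probes higher and 30 lower in the DSS group among the 9559 that were tested, that is, detected on every array of at least 1 group. A dim probe can pass this filter through the group where it is high alone, and its p value then partly follows from the filter. The shares were 0.732% and 0.314%, below the 1.98% and 1.08% of all 99622 tested probes of the array. Together the CIRCpedia calls amounted to 1.05%, those of the linear probes to 3.37% and those of all tested probes to 3.06%. An unadjusted p of at most 0.05 alone held for 1180 (12.3%), against 13.2% of all tested probes. The share was lower than that of the linear probes at each signal from 4 upward, with 1.62% against 3.02% between 4 and 6 and 0.145% against 2.49% between 6 and 8. Below 4 it was 8.02% against 8.35%. Aligning the arrays at their 75th percentiles instead of by quantiles turned the balance, giving 46 higher and 113 lower, with 28.9% of the calls higher in place of 70%. This alignment placed the median of all tested probes at -0.11.

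Over all tested CIRCpedia probes the middle of the distribution barely moved. The median log2 difference was 0.01 for DSS vs Control, with 5% of the probes below -0.51 and 5% above 0.56. For the linear probes the median was -0.04 and these limits were -0.75 and 0.72. The slides nearly followed the groups, since slide 1 held the 3 Control arrays and DSS replicate 1, slide 2 held replicates 2 and 3 of DSS with replicates 1 and 2 of DSS+PAMK, and slide 3 held DSS+PAMK replicate 3. Non-overlapping groups were found in 1205 probes (12.6%) higher and 805 (8.42%) lower in the DSS group, against 10.5% and 8.22% of all tested probes. Within slide 1 the median was -0.07, and DSS replicates 2 and 3 lay 0.07 above the Control mean. Fewer cells of a type and less RNA per cell cannot be told apart in whole tissue.

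With Benjamini-Hochberg adjustment, taken across every tested probe, limma called 5 CIRCpedia probes higher and 0 lower in the DSS group, and the smallest adjusted p was 0.0352. The shares among all tested probes were 0.161% and 0.0151%. Probe MMU_CIRCpedia_219170_5_1012 gave 7.92, 7.63 and 7.52 in Control colons, 8.98, 9.33 and 9.19 in DSS colons and 8.25, 8.41 and 8.25 in DSS+PAMK colons. Probe MMU_CIRCpedia_40068_3_14, which has the same downstream exon and another upstream exon, gave 8.18, 7.76 and 7.69, then 9.15, 9.34 and 9.25, then 8.38, 8.51 and 8.39. In both probes every DSS array lay above all arrays of the other groups. The log2 differences from the Control group were 1.47 (standard error 0.16, adjusted p = 0.0352 from limma) and 1.37 (standard error 0.16, adjusted p = 0.0355). They were 1.29 and 1.28 within slide 1. Because they share 41 bases of 60, the pair is not 2 independent readings.

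The other 3 probes covered low and high signals. Probe MMU_CIRCpedia_219948_4_16 was close to background on the Control arrays, none of which was marked well above it and where it gave 2.57, 2.65 and 2.83, and it gave 4.64, 5.13 and 4.21 in DSS colons and 3.28, 3.62 and 3.30 in DSS+PAMK colons. The DSS signal was at least 3.28-fold higher than in the Control group, and the adjusted p from limma was 0.0354. For such a bound, a dim array takes its own signal or the lowest signal marked well above background on it, whichever is greater. This probe entered the test only through its DSS arrays, where it was high, so its p value partly follows from the filter. Without a filter on dim probes limma called 0 CIRCpedia probes after adjustment. Probe MMU_CIRCpedia_226440_7_13 gave 12.07, 11.56 and 11.85 in Control colons, 12.87, 13.13 and 12.96 in DSS colons and 12.38, 12.22 and 12.22 in DSS+PAMK colons. Its log2 difference was 1.16 (standard error 0.17, adjusted p = 0.049 from limma). Probe MMU_CIRCpedia_17698_14_29 gave 3.28, 3.49 and 3.66 in Control colons and 4.67, 4.55 and 4.61 in DSS colons, and 4.96, 4.56 and 4.70 in DSS+PAMK colons, which overlapped those of DSS. Its log2 difference was 1.13 (standard error 0.16, adjusted p = 0.049). These adjusted calls did not outlast the loss of single arrays. None of the 5 was called without any 1 Control array, DSS replicate 1, DSS replicate 2, DSS+PAMK replicate 1 or DSS+PAMK replicate 3, 1 was called without DSS+PAMK replicate 2 and 2 without DSS replicate 3.

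Ctsc, the gene of cathepsin C, a lysosomal protease that activates the serine proteases of neutrophil granules, was the only gene of the host gene lists that a CIRCpedia probe could be tied to. Its probe gave 9.05, 9.07 and 9.18 in Control colons, 10.06, 10.25 and 10.02 in DSS colons and 9.81, 10.01 and 9.56 in DSS+PAMK colons. Every DSS array lay above every Control array, with a log2 difference of 1.01 (standard error 0.16, adjusted p = 0.0604 from limma) and 0.96 within slide 1. The fold change of 2.01 lies at the threshold. The call was lost with slide as a block, with normexp background correction and without Control replicate 1, Control replicate 2 or DSS replicate 2. The study's tables list this probe because it was selected on the same arrays. A linear probe that shares 43 bases with it gave 9.56, 9.59 and 9.56 in Control colons, 10.63, 10.78 and 10.40 in DSS colons and 10.19, 10.44 and 10.00 in DSS+PAMK colons. It was 1.04 higher in the DSS group, and the difference between both changes was -0.03 (standard error 0.07, adjusted p = 0.923 from limma over the pairs).

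The largest called differences from the Control group belonged to a pair of probes with one sequence after the junction. Probe MMU_CIRCpedia_30961_16_20 gave 11.52, 10.67 and 10.92 in Control colons, 13.60, 12.74 and 14.80 in DSS colons and 10.46, 10.89 and 10.52 in DSS+PAMK colons. Probe MMU_CIRCpedia_30960_13_14 gave 11.59, 10.79 and 10.93, then 13.55, 12.74 and 14.75, then 10.49, 10.96 and 10.56. The DSS arrays lay above all others in both, and DSS replicate 3 was the highest. The log2 differences from the Control group were 2.68 (standard error 0.47) and 2.58 (standard error 0.46), and neither passed the adjustment of limma (adjusted p = 0.0776 and 0.0797). Within slide 1 they were 2.56 and 2.45. The probes share 30 bases, of which 28 follow the junction, and agreed within 0.12 on every array although the sequences before the junction differ.

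Among the other 5 probes with the largest called positive differences in the DSS group, all had dim Control arrays. Probe MMU_CIRCpedia_216075_0_18 had no Control array marked well above background, and DSS exceeded Control at least 2.60-fold (adjusted p = 0.195 from limma). It too entered the test only through its DSS arrays. Probes MMU_CIRCpedia_27036_7_32 and MMU_CIRCpedia_225731_7_14 share 40 bases and were 1.92 and 1.89 higher, with Control replicate 1 at 2.01 and 1.66 against 3.47 to 4.28 on the other Control arrays. Probes MMU_CIRCpedia_213643_2_24 and MMU_CIRCpedia_16830_16_24 were 1.94 and 1.82 higher, and Control replicate 1 was again the lowest array of both. Of the 70 probes called higher, 41 were well above background on all 9 arrays, and 44 were still called without Control replicate 1. All 70 were higher in DSS replicate 1 than in the mean of the Control arrays of the same slide, by a median of 1.28. The calls were made on these same arrays, so this direction follows largely from the selection.

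The probes called lower in the DSS group were dimmer and depended more on a single array. Their median signal was 3.79, and 6 of the 30 were well above background on all 9 arrays. Without DSS replicate 1, 10 of the 30 were still called. Probe MMU_CIRCpedia_221004_13_14 gave 5.20, 4.18 and 3.91 in Control colons and 1.20, 3.74 and 3.07 in DSS colons, a log2 difference of -1.76 (adjusted p = 0.283 from limma). The same array was the lowest in MMU_CIRCpedia_26478_13_16, MMU_CIRCpedia_8641_8_10 and MMU_CIRCpedia_15693_14_16, with 1.21, 1.11 and 1.16 against 3.38 to 3.92 in the other DSS arrays. Without it, the differences of these 4 probes lay between -1.03 and -0.66, against -1.76 to -1.49 with it. Probe MMU_CIRCpedia_222419_0_16 was well above background in all 3 groups and gave 6.30, 5.68 and 6.52 in Control colons, 4.25, 5.26 and 5.05 in DSS colons and 5.85, 5.16 and 4.59 in DSS+PAMK colons. Its log2 difference was -1.31 (adjusted p = 0.224 from limma). Probes MMU_CIRCpedia_225847_0_20 and MMU_CIRCpedia_226685_6_14 differed by -1.52 and -1.55, and the second, with no DSS array marked well above background, was at least 1.21-fold lower there.

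Dnah8, which encodes a dynein heavy chain of the axoneme, had a probe with opposite differences. It gave 4.11, 5.10 and 4.69 in Control colons, 3.64, 3.34 and 2.78 in DSS colons and 5.23, 5.09 and 4.95 in DSS+PAMK colons. No DSS array was well above background. Against Control colons, DSS colons were at least 2.57-fold lower (adjusted p = 0.119 from limma). Against DSS colons, those given PAMK were at least 3.54-fold higher (adjusted p = 0.628 from limma). The call against the Control group was lost with slide as a fixed block, and normexp background correction lost both calls. The probe of Egfem1 gave 4.01, 3.98 and 2.60 in Control colons, 4.46, 4.82 and 4.52 in DSS colons and 2.74, 3.31 and 3.04 in DSS+PAMK colons, where no array was well above background. DSS+PAMK colons were at least 2.21-fold lower than DSS colons (adjusted p = 0.66 from limma). DSS colons were 1.07 higher than Control colons (adjusted p = 0.283 from limma). This call was lost without Control replicate 3 or DSS replicate 2 and with the methods' t-test. It was also lost under the shift to the 75th percentile and with slide as a fixed block. Normexp background correction lost both calls of the Egfem1 probe. On Control replicate 3 this probe lay below the lowest signal marked well above background. It thus entered the test only through its DSS arrays, where it was high, so the p values of both calls partly follow from the filter. Both probes stand in the study's tables because they were selected on these arrays, so their differences are descriptions.

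DSS+PAMK vs DSS asks which junction probes differ in signal after the polysaccharide. At the same threshold limma called 11 CIRCpedia probes higher after PAMK and 20 lower, 0.115% and 0.209% of those tested, against 0.643% and 1.06% of all tested probes. After adjustment limma called 0, with a smallest adjusted p of 0.628, while 484 (5.06%) had an unadjusted p of at most 0.05 against 7.22% of all tested probes. The methods' t-test called 0 after adjustment as well. Groups did not overlap in 1123 probes that were higher (11.7%, against 9.45% of all tested probes) and in 567 that were lower (5.93%, against 6.53%). The median log2 difference of the tested CIRCpedia probes was 0.06, that of the linear probes 0.02, and that of the CIRCpedia probes within slide 2 was 0.02.

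Probes MMU_CIRCpedia_30961_16_20 and MMU_CIRCpedia_30960_13_14 were lower in the DSS+PAMK group by the largest amount, with log2 differences of -3.09 and -3.01 (adjusted p = 0.628 for both, from limma). Within slide 2 they were -3.10 and -3.02, and without DSS replicate 3 the difference of MMU_CIRCpedia_30961_16_20 was -2.55. In the DSS+PAMK group they differed from the Control group by -0.42 and -0.44. Probe MMU_CIRCpedia_39619_9_22 came next with -2.80, and this value rested on DSS replicate 3, which gave 10.42 against 5.71 and 6.51 on the other DSS arrays and 4.60 to 4.94 in DSS+PAMK colons. Without that array the difference was -1.36.

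A second pair with a common exon was called lower in the DSS+PAMK group, with Control arrays that reached into both other groups. Probe MMU_CIRCpedia_24300_7_69 gave 9.80, 6.71 and 9.48 in Control colons, 8.67, 8.93 and 10.23 in DSS colons and 7.08, 7.29 and 7.43 in DSS+PAMK colons. Probe MMU_CIRCpedia_24259_16_20, which shares 30 bases with it, gave 8.41, 5.21 and 8.09, then 7.03, 7.26 and 8.65, then 5.68, 5.80 and 5.95. Control replicate 2 lay with the DSS+PAMK arrays in both. The log2 differences from the DSS group were -2.01 and -1.83 (adjusted p = 0.675 and 0.69 from limma). Both calls were lost with slide as a fixed block, without DSS replicate 3 and without any 1 of the DSS+PAMK arrays. The second was also lost without DSS replicate 2, without Control replicate 3 and without the filter on dim probes. Probes MMU_CIRCpedia_15314_14_24 and MMU_CIRCpedia_40147_16_1016 differed by -1.62 and -1.39, at signals below 5 on every array.

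Among probes higher in the DSS+PAMK group, MMU_CIRCpedia_7336_9_11 had the largest difference. It gave 9.52, 12.01 and 9.74 in Control colons, 10.82, 9.23 and 9.32 in DSS colons and 12.28, 12.73 and 11.92 in DSS+PAMK colons. The DSS+PAMK arrays lay above all DSS arrays, with a log2 difference of 2.52 (standard error 0.68, adjusted p = 0.66 from limma) and 3.23 within slide 2, but Control replicate 2 lay among them. A linear probe that shares 23 bases with it had the same 4 highest arrays, with 8.75, 11.53 and 8.81 in Control colons, 9.62, 8.24 and 8.21 in DSS colons and 11.24, 11.64 and 10.83 in DSS+PAMK colons, and was 2.55 higher. Probes MMU_CIRCpedia_223462_0_20 and MMU_CIRCpedia_2705_11_20, which share 34 bases before the junction, were 1.34 and 1.14 higher. In both, Control replicate 2 was the highest Control array. Probe MMU_CIRCpedia_217660_3_14 was 1.70 higher, MMU_CIRCpedia_228991_1_12 was 1.23 higher and MMU_CIRCpedia_224331_16_1004 was 1.28 higher. No DSS array of the last 2 was well above background and 2 and 1 of their DSS+PAMK arrays were, so their differences have no bound.

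Because the comparisons of the DSS group with the Control and DSS+PAMK groups share the DSS arrays, an error on these arrays enters both with opposite sign. The count of CIRCpedia probes called higher in DSS colons than in Control colons and lower after PAMK was 7 (0.0732% of those tested), and 4 (0.0418%) were called lower and then higher, against 0.397% and 0.183% of all tested probes. The first set holds MMU_CIRCpedia_30961_16_20, MMU_CIRCpedia_30960_13_14, MMU_CIRCpedia_219948_4_16 and the probe of Egfem1, and the second holds the probe of Dnah8, MMU_CIRCpedia_221004_13_14, whose call after PAMK was lost in 11 of 17 refits, and MMU_CIRCpedia_224331_16_1004. In the first set, MMU_CIRCpedia_219948_4_16 and the probe of Egfem1 entered the test only through their DSS arrays, where they were high.

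DSS+PAMK vs Control shows what differed after treatment. Limma called 49 probes higher and 25 lower, 0.513% and 0.262% of those tested against 1.65% and 1.02% of all tested probes (0.774% against 2.67% together), and 0 after adjustment (smallest adjusted p 0.114), while 1065 (11.1%) had an unadjusted p of at most 0.05 and 13.9% of all tested probes did. No slide held arrays of both groups. Leaving out Control replicate 1 left 11 of the 49 higher and 11 of the 25 lower. Under the shift to the 75th percentile, 12 were higher and 110 lower, with 9.84% of the calls higher in place of 66.2%. The largest difference upward was that of MMU_CIRCpedia_212172_0_18, which gave 3.27, 5.0 and 3.63 in Control colons, 5.77, 5.31 and 5.33 in DSS colons and 5.74, 6.14 and 5.78 in DSS+PAMK colons, 1.92 above the Control group. Probes MMU_CIRCpedia_226165_16_24, MMU_CIRCpedia_37846_0_15, MMU_CIRCpedia_28518_3_20 and MMU_CIRCpedia_212358_7_18 were 1.63 to 1.80 higher, and Control replicate 1 was the lowest array in each. Downward, MMU_CIRCpedia_874_16_25 had no DSS or DSS+PAMK array marked well above background and was at least 1.35-fold lower than Control after PAMK, while MMU_CIRCpedia_19169_16_17 was at least 2.20-fold lower. Probe MMU_CIRCpedia_40242_6_19 was the only one with a signal above 7 among the 5 largest negative differences that were called without overlap, and gave 8.34, 8.90 and 9.21 in Control colons, 8.36, 8.09 and 8.14 in DSS colons and 7.50, 7.41 and 7.41 in DSS+PAMK colons, a log2 difference of -1.37. Probes MMU_CIRCpedia_23348_7_11 and MMU_CIRCpedia_40147_16_1016 differed by -1.56 and -1.34. A larger difference that was not called, -4.37 for MMU_CIRCpedia_218326_16_20, is named after its values were seen and rests on Control replicate 1, which gave 17.78 against 3.66 and 3.79 on the other Control arrays and 3.86 to 4.23 in DSS+PAMK colons.

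The exons of a circle also occur in the linear RNA, and the array carries probes for both. Of the CIRCpedia probes, 1905 (17.3%) share at least 20 bases with a linear probe, 2489 (22.6%) with an mmu_circ probe and 5892 (53.4%) with another CIRCpedia probe, in 1853 families of up to 35 probes. Such probes share part of their target and are not independent. For 1638 CIRCpedia probes both sides were tested. Across these probes, which share the arrays and their bases, the log2 difference between the DSS and Control groups correlated with that of the linear probe at r = 0.594. In this comparison the correlation followed the length of the shared stretch. It was r = 0.362 at 20 to 24 bases (n = 282), 0.511 at 25 to 29 (n = 377), 0.566 at 30 to 34 (n = 524) and 0.836 at 35 or more (n = 455). The same order held for DSS+PAMK vs Control in part, with 0.426, 0.5, 0.46 and 0.840. In DSS+PAMK vs DSS the values were 0.643, 0.522, 0.618 and 0.849. There the shortest stretches exceeded both middle classes, and only the class of 35 or more stood above the rest. In pairs that share the exon before the junction the value for DSS vs Control was 0.715 (n = 974), and in those that share the exon after it 0.418 (n = 664). The 179 pairs with an mmu_circ probe across the same junction gave r = 0.728, and their differences lay within 1.5-fold of each other in 97.2%.

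The junction probe was set against its linear probe as the signed log2 difference of the first minus that of the second. A positive value means a higher ratio of junction probe to linear probe signal in the first group named. Linear RNA may add to the signal of both probes, which was not tested. Limma called 2 pairs with a positive and 6 with a negative value in DSS vs Control (0.122% and 0.366% of the pairs, 0.488% together), 2 and 0 in DSS+PAMK vs DSS (0.122% and 0%) and 4 and 9 in DSS+PAMK vs Control (0.244% and 0.549%, 0.794% together). After adjustment over the pairs 0 were called, and the smallest adjusted p was 0.112, 0.13 and 0.105, while 186, 62 and 178 pairs had an unadjusted p of at most 0.05. The largest gap in DSS vs Control belonged to MMU_CIRCpedia_39127_3_12, which shares 42 bases with its linear probe. The CIRCpedia probe gave 5.62, 4.32 and 4.98 in Control colons, 5.72, 5.78 and 6.28 in DSS colons and 4.93, 4.87 and 5.12 in DSS+PAMK colons. The linear probe gave 3.17, 2.39 and 3.55, then 4.70, 5.68 and 6.86, then 3.05, 3.37 and 2.54. The linear probe was therefore 2.71 higher in the DSS group and the CIRCpedia probe 0.96 higher, with a difference of -1.75 (standard error 0.46, adjusted p = 0.232 from limma). This linear probe lay below the lowest signal marked well above background on Control replicate 2 and on every DSS+PAMK array. It entered the test only through its DSS arrays, where it was high, so this gap and its p value partly follow from the filter. Probe MMU_CIRCpedia_228008_6_16 stayed between 12.41 and 12.61 on all 9 arrays, while a linear probe that shares 21 bases with it gave 11.56, 10.19 and 9.87 in Control colons and 9.21 to 9.87 on the other arrays. The reverse order was seen for MMU_CIRCpedia_215106_7_16, which gave 11.64, 11.67 and 11.72 in Control colons, 9.89 to 10.91 in DSS colons and 10.46 to 10.83 in DSS+PAMK colons, against 7.38 to 8.08 on all arrays for a linear probe with 24 shared bases. In DSS+PAMK vs Control the difference of that pair was -1.24 (standard error 0.26, adjusted p = 0.178 from limma).

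Other pairs moved apart in different ways. In DSS vs Control, MMU_CIRCpedia_219138_0_19 was 1.31 higher and its linear probe 0.06 higher. This junction probe lay below the lowest signal marked well above background on Control replicates 1 and 2. It entered the test only outside the Control group, where it was low, so its gap partly follows from the filter. MMU_CIRCpedia_35221_14_8 was 0.07 higher against 1.43 for its linear probe. In 3 pairs the junction probe was lower and the linear probe higher, with -0.69 against 0.65 for MMU_CIRCpedia_30495_15_1010, -0.85 against 0.40 for MMU_CIRCpedia_20546_13_28 and -0.69 against 0.48 for MMU_CIRCpedia_21530_15_20. For each of these junction probes, Control replicate 1 was the highest Control array and DSS replicate 1 the lowest DSS array. DSS replicate 1 gave 3.72, 3.40 and 3.47 in that order, against 3.92 to 5.33 on the other DSS arrays. The last 2 of its values lay below the lowest signal marked well above background on it. In DSS+PAMK vs DSS the called pairs were MMU_CIRCpedia_39127_3_12 and MMU_CIRCpedia_8296_14_2. Both linear probes lay below the lowest signal marked well above background on every DSS+PAMK array, so the sizes of these gaps, 1.80 and 1.58, rest on signals that were not measured above background. In DSS+PAMK vs Control, MMU_CIRCpedia_7180_16_28, MMU_CIRCpedia_224296_11_13 and MMU_CIRCpedia_29754_5_22 were 0.63 to 0.89 higher while their linear probes differed by -0.39 to -0.13. The junction probe was lower and the linear probe higher for MMU_CIRCpedia_227782_16_1006 (-0.79 against 0.55), MMU_CIRCpedia_30495_15_1010 (-0.56 against 0.74) and MMU_CIRCpedia_211964_16_24 (-0.33 against 0.79), and MMU_CIRCpedia_216003_14_20 was 0.27 higher against 1.37. The linear probe of the last lay below the lowest signal marked well above background on Control replicate 3. It too entered the test only outside the Control group, where it was low.

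Of the 58 probes linked to genes by a start site, 50 were tested, and 0 were called in any comparison, where 1.05%, 0.324% and 0.774% of the tested CIRCpedia probes and 3.06%, 1.7% and 2.67% of all tested probes were called in DSS vs Control, DSS+PAMK vs DSS and DSS+PAMK vs Control. They were added for this link. Only some of the linked genes are described, picked by no fixed rule and with earlier results of these data known. Chd9, a chromatin remodeler, had 4 probes with one sequence after the junction, within chr8:90932247-90932279, which share 31 bases after the junction. Their means over the 9 arrays were 4.58, 5.14, 6.06 and 7.29, and their DSS vs Control differences lay between -0.13 and 0.20. The probe of Mapk8 gave 6.25, 5.92 and 5.76 in Control colons, 5.19, 5.85 and 5.57 in DSS colons and 5.47, 5.79 and 5.57 in DSS+PAMK colons, with overlapping groups. The probe of Ncor1 gave 10.88, 11.19 and 10.90, then 10.43, 10.72 and 10.58, then 10.64, 10.65 and 10.80. It was lower on all DSS arrays by 0.41 on average (adjusted p = 0.307 from limma).

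Ncoa6 had the opposite order, with 11.56, 11.44 and 11.47 in Control colons, 11.67, 11.66 and 11.81 in DSS colons and 11.68, 11.69 and 11.68 in DSS+PAMK colons, a difference of 0.23 (adjusted p = 0.465 from limma). The Setd5 probes, which share the sequence after the junction, had different signals. Probe MMU_CIRCpedia_3497_8_8 lay between 9.0 and 9.57 on the 9 arrays, and MMU_CIRCpedia_3499_12_24 between 2.79 and 4.55. The pair linked to Gm35341 moved together, with 12.48, 11.91 and 12.86 in Control colons, 13.15, 13.40 and 13.37 in DSS colons and 12.78, 12.84 and 12.99 in DSS+PAMK colons for MMU_CIRCpedia_228491_9_10. The difference was 0.89 for this probe and 0.86 for MMU_CIRCpedia_6785_12_30 (adjusted p = 0.18 and 0.165 from limma), just under the fold of 2. Host gene lists for epithelium, muscle, fibroblasts, endothelium, neurons and leukocytes could not be filled. The study's tables tied 3 CIRCpedia probes to a gene, and 58 were linked to one only through the window around its start site.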

How the data were processed

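RNA of 9 colon samples was labeled by the authors with Cy3 and put on 1-color Agilent arrays of 60-base probes. The deposited intensity of each spot is the background-corrected processed signal of Feature Extraction 10.7.1.1, on a linear scale and not normalized between arrays. Outlier spots were left out (2 values among CIRCpedia probes), log2 intensities were quantile normalized as in the methods, and each CIRCpedia probe has 1 spot. The tests took 99622 of 166924 probes, those that passed the well-above-background mark throughout 1 group or more, and 67302 were left out. A model of group means over the 9 arrays was fitted with limma 3.58.1 in R 4.3.3 (6 residual and 2.50 prior degrees of freedom). Calls used a fold change of 2 and an unadjusted p of 0.05, and Benjamini-Hochberg adjustment covered all tested probes. The fit was tested on simulated data with known changes.

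Sequences were compared as exact shared stretches of at least 20 bases. Probes named are those the study's tables pair with genes, the 8 largest called differences without overlap per direction in each comparison with the DSS group, the 5 largest in DSS+PAMK vs Control, the 10 brightest, the 5 largest called gaps to linear probes per direction and the adjusted calls, while promoter-linked probes were added for their gene link. The members and lists were chosen with earlier results of these data known. The labels do not say that replicates came from separate animals beyond their number, so p-values measure the spread between these samples. Alternatives were other normalization, background, filters, tests, blocks and each array left out. Depth does not apply to arrays, and 3 arrays per group limit precision. The authors' fold changes and p-values in the supplementary tables were not used.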

Additional observations from a re-analysis of the deposited data

How the results depend on the processing

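The replicate numbers gave no sign of paired samples. Same-numbered arrays of different groups deviated together with correlations of -0.20 to 0.09, and other-numbered ones with -0.18 to 0.21. With 3 arrays per group these correlations cannot exclude a pairing. With the replicate block, limma called 68 higher, 29 lower and 0 after adjustment in DSS vs Control, and no other count moved by over 1.5 times. Shifting arrays to the 75th percentile gave 46 higher, 113 lower and 14 pairs with linear probes in DSS vs Control, 4 pairs in DSS+PAMK vs DSS, 12 higher and 110 lower in DSS+PAMK vs Control, and a median gap to the linear probes of 0.21 in place of 0.09 in the last. It left 9 higher and 29 lower in DSS+PAMK vs DSS (23.7% higher against 35.5%). Normexp background correction, whose offset of 50 compresses dim signals, gave 7 higher, 2 lower, 8 after adjustment and 2 pairs in DSS vs Control, 1, 7 and 0 pairs in DSS+PAMK vs DSS (12.5% higher), and 1, 3, 1 after adjustment and 2 pairs in DSS+PAMK vs Control (25% higher). Without a filter on dim probes there were 60 lower and 0 after adjustment in DSS vs Control, 40 higher and 48 lower in DSS+PAMK vs DSS, and 77 and 46 in DSS+PAMK vs Control. Requiring detection on all 9 arrays, which tests fewer probes and gives no value for dimmer ones, left 41 higher, 6 lower, 15 after adjustment and 2 pairs in DSS vs Control, 5, 9 and 0 pairs in DSS+PAMK vs DSS, and 25, 11 and 8 pairs in DSS+PAMK vs Control. The methods' t-test gave 14 lower and 0 after adjustment in DSS vs Control and 20 higher and 13 lower in DSS+PAMK vs Control. Only the 2 groups compared gave 0 after adjustment in DSS vs Control. Slide as a fixed block gave 356 lower, 15 after adjustment (none of the main 5) and 35 pairs in DSS vs Control, 24 higher, 42 lower and 4 pairs in DSS+PAMK vs DSS, and 79, 406 and 37 pairs in DSS+PAMK vs Control, and as a random block 3 after adjustment in DSS vs Control. The causes were not tested except where stated.

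Leaving out 1 array at a time gave 53 to 121 higher, 23 to 85 lower, 0 to 5 after adjustment and 3 to 23 pairs in DSS vs Control, 11 to 42, 17 to 28, 0 and 2 to 6 in DSS+PAMK vs DSS, and 20 to 139, 14 to 49, 0 and 4 to 24 in DSS+PAMK vs Control. The ends came from leaving out Control replicates 1, 2 or 3 or DSS replicates 1, 2 or 3. The median gap ranged from -0.02 to 0.09, -0.01 to 0.09 and 0.06 to 0.12, and the detected share from -3.75 to -0.316, -2.98 to 0.451 and -5.27 to -2.23 percentage points, in the same order of comparisons. Of 853 refits of 49 named differences, 724 kept direction and call status, 129 lost the call and 0 reversed, and normexp correction lost 36 of the calls. The Ctsc probe was not called in DSS+PAMK vs DSS, and its 18 refits there count as kept. Signal over background limits the probes below 4, where 8.02% were called in DSS vs Control.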
